A study of Mus musculus with 12 samples.

Results

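The endoplasmic reticulum (ER) unfolded protein response and folding genes described here are 32 genes named in a list of ER stress sensors, chaperones, disulfide isomerases, ER-associated degradation factors and translocon subunits, found by gene name among the 55137 rows of a read count table. All 32 were present, and 31 of them, all but Derl3, passed the filter on low counts and were tested among 15267 genes. The cells were CMT-93, an epithelial line from the mouse rectum, and RNA was sequenced in 12 libraries, 3 in each of 4 treatment groups. The groups were PTSO + T. muris, PTSO, T. muris and Control. PTSO, an organosulfur compound of garlic that the study's design text calls PTSO-PTS, was given at 20 µM, and the other cells received its vehicle. Antigens of the whipworm Trichuris muris were added 30 min later at 100 µg/mL in both T. muris groups, and all cells were harvested after 6 h. LPS appears in the series title where the labels have T. muris, and the labels were followed. Whether a group's 3 libraries are separate cultures is not stated, so the p-values measure only the spread between these samples, which may be technical.

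Proteins that enter the secretory pathway are folded in the ER lumen, and an excess of unfolded protein there is sensed by 3 membrane proteins, the kinases PERK and IRE1 and the transcription factor precursor ATF6. IRE1 splices the messenger RNA of Xbp1 to make an active transcription factor, ATF6 is cut free in the Golgi, and PERK slows translation and favours ATF4. XBP1 and ATF6 raise transcription of chaperones, disulfide isomerases and the degradation machinery, in part through the ER stress response element (ERSE) in their promoters. Gut epithelium relies on this response because its secretory cells, above all goblet cells, make large amounts of mucin. Gene-level counts cannot show Xbp1 splicing, ATF6 cleavage or the phosphorylation of PERK and its substrate.

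The promoters are shown because 11 of the genes hold a form of this element there. RefSeq windows of 300 bases (GRCm38.p6, 250 bases before to 50 after the start of the gene) were matched for 26 of the 32 genes, and none was matched for Atf6, Hspa13, Hyou1, Manf, Derl1 and Sec61a1. A gene was counted once however many windows it had. The ERSE, searched as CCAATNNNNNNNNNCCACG on both strands, stood in the windows of 9 of the 26 genes (34.6%), against 37 of all 27025 genes with a window (0.137%). The 9 were Hspa5, Hsp90b1, Calr, Canx, Dnajc3, Creld2, Pdia6, Syvn1 and Derl3, and the window of Hsp90b1 held the ERSE at 2 places. Its second form, ATTGGNCCACG, stood in the windows of Dnajb11 and Herpud1, or 7.69% of the 26 genes against 0.0444% of all genes with a window. The second form shares the CCACG stretch with the ERSE. The windows of 4 genes follow, each on the strand of its gene, with the element in capitals. They are Hspa5, the classic target (chr2:34771840-34772139, plus strand), and 3 of the genes whose levels passed the test in at least 1 comparison, Herpud1 (chr8:94386179-94386478, plus strand), Calr (chr8:84846882-84847181, minus strand) and Creld2 (chr15:88819396-88819695, plus strand).
Hspa5: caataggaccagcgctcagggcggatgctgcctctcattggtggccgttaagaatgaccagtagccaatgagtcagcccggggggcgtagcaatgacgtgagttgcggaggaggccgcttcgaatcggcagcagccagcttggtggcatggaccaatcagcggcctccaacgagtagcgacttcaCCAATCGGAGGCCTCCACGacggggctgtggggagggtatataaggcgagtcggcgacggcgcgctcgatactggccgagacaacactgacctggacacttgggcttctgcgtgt
Herpud1: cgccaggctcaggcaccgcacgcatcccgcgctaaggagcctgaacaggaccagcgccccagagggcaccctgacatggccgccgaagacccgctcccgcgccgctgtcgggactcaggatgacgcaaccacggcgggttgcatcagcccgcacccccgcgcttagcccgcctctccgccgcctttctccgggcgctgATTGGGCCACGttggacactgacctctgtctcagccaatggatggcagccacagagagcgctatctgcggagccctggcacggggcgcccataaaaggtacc
Calr: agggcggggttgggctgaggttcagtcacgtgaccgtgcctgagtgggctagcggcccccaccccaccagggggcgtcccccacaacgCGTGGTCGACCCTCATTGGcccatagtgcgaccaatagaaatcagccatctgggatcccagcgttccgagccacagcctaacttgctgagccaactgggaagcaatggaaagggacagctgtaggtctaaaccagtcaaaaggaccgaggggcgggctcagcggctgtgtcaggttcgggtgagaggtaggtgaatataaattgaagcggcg
Creld2: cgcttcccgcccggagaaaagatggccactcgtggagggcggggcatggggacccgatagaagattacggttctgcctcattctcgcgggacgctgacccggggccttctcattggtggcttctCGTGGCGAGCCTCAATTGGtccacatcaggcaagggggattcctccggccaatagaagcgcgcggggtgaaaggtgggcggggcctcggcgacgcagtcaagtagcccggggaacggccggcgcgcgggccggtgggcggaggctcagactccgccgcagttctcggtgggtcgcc
The element began 65 bases before the start in Hspa5, 52 in Herpud1, 162 in Calr and 126 in Creld2, and it was read on the opposite strand in Calr and Creld2. The core TGACGTGG of the unfolded protein response element was in the windows of none of the 26 genes and of 0.714% of all genes with a window. The short ends alone were common, since CCAAT stood in the windows of 80.8% of the 26 genes against 41.1% of all, and CCACG in 80.8% against 35.5%. A match is a run of letters in the window and not a measured binding site.

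Total counts were 16.7 to 34.5 M per library, with counts in 19254 to 20892 genes, and the 32 genes took 0.772% to 0.841% of the counts. The epithelial markers Epcam, Cdh1, Krt8, Krt18, Krt19, Cldn4 and Vil1 were all tested and summed to 9050 to 9720 CPM, counts per 1 M counts of the library after TMM scaling, in each library. Single markers changed. In the average PTSO effect, that of PTSO averaged over libraries with and without antigens, edgeR called Epcam (0.26) and Cldn4 (0.22) higher and Krt19 (-0.15), Cdh1 (-0.12) and the endothelial marker Tek (-0.56) lower, all log2. Epcam was also higher with T. muris against control (0.15) and in the average antigen effect, that of antigens averaged over libraries with and without PTSO (0.12). With PTSO + T. muris against control it called Epcam (0.38), Cldn4 (0.23) and Krt18 (0.13) higher and Cdh1 (-0.21), Krt19 (-0.26), Tek (-0.92) and the fibroblast marker Pdgfra (-1.93, from group means of 0.392 and 1.54 CPM) lower. Their part in the results below was not tested. The goblet cell markers summed to at most 1.67 CPM, with 2 of 5 at 0 in every library. Leukocyte markers stayed at or under 5.88, fibroblast markers at or under 4.53 (3 of 5 at 0) and endothelial markers at or under 4.99 CPM in every library. Control library 1 stood apart from control libraries 2 and 3: their counts differed by a chi-square per degree of freedom of 15.8 and 24.5, against 7.63 between libraries 2 and 3 and 4.04 to 8.01 within the treated groups. The first principal component, with 19.6% of the variance, ran from -41.5 in control library 3 and -35.4 in control library 2 through -3.58 in control library 1 to a range of 0.929 to 23 in treated libraries. Counts of called genes in comparisons with control are therefore given below also without control library 1 and without control libraries 2 and 3. A gene said to pass in no comparison was judged in the main fit of all 12 libraries. Some of these genes were called without control library 1.

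The most abundant of these genes were isomerases and chaperones, and the sensors were in the lower part of the order. Levels between genes are given as CPM per kb of merged exon, averaged over the 12 libraries. The disulfide isomerase P4hb (401.7 ± 20.1, SD) and the lectin chaperone Calr (386.1 ± 23.7) were highest and overlapped in range, ahead of Pdia3 (319.5 ± 12.8), the isomerase that works with calreticulin. The membrane lectin chaperone Canx (141.2), the HSP90 of the ER, Hsp90b1 (137.5), and its HSP70, Hspa5 or BiP (136.4), formed the next step and overlapped. Pdia4 (71.21), Pdia6 (65.31), Herpud1 (54.76), Os9 (45.88) and Xbp1 (42.07) came after them. Of the sensors, Eif2ak3, which encodes PERK, stood at 19.76, Ern1, which encodes IRE1, at 11.29 and Atf6 at 9.945. Derl3, a derlin found mainly in strongly secretory tissues, had 87 counts in the 12 libraries together and a mean of 0.1361, and T. muris library 3 had none. Neighbours in this order overlapped in range, except after Calr, Pdia3, Hspa5, Sec61a1, Edem1 and Derl2.

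**Figure D1:**
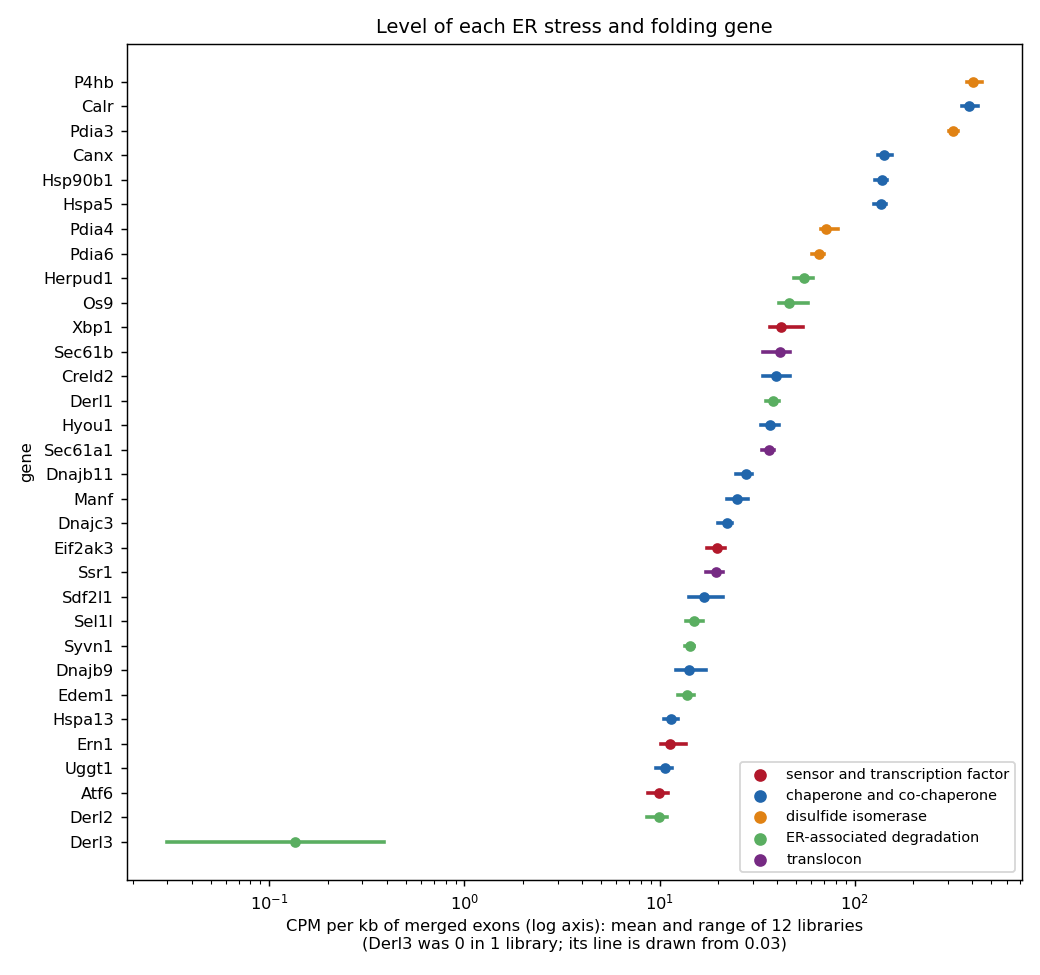
Level of each of the 32 genes as CPM per kb of merged exon (log axis), with the point at the mean and the line over the range of 12 libraries, coloured by role. P4hb, Calr and Pdia3 lie highest, at 401.7, 386.1 and 319.5, and Derl3 lies apart at 0.1361.

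The treatments moved these genes little. In all 8 comparisons, fitted with all 12 libraries, each of the 31 tested genes had a 95% interval of its fold change that lay within 1.5-fold in either direction. Xbp1 came nearest to this bound, with limits of -0.555 for PTSO against control and 0.58 for the interaction, both log2. Of the 31, 9 passed the test (edgeR's quasi-likelihood F-test, adjusted p under 0.05 over all genes) in at least 1 comparison and 22 passed in none, where 20.1% of all genes passed in at least 1. The 9 were Ern1, Xbp1, Calr, Hyou1, Manf, Dnajb9, Creld2, Herpud1 and Edem1, and the largest change among them was that of Xbp1 with PTSO, a log2 fold change of -0.35. The summed level of the 32 genes was 7896 to 8018 CPM in PTSO + T. muris libraries, 7728 to 7767 in PTSO libraries, 8255 to 8477 in T. muris libraries and 7962 to 8325 in control libraries. The PTSO libraries were the lowest in this sum and below every other library, the T. muris libraries overlapped control libraries alone, and the PTSO + T. muris libraries lay between the single treatments. In these bulk samples, fewer cells of a kind and less RNA per cell cannot be told apart.

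**Figure D2:**
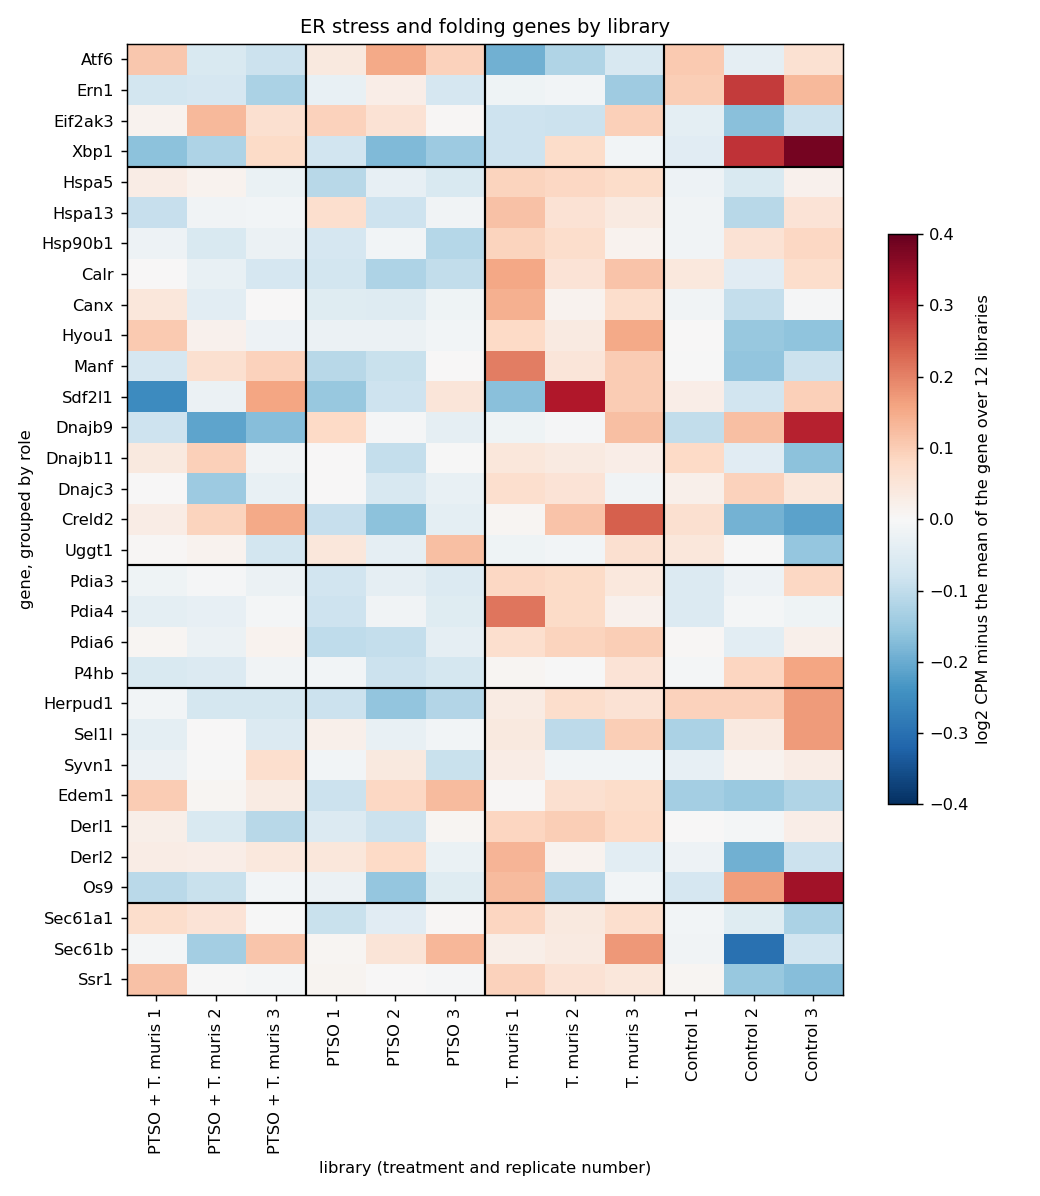
Heat map of log2 CPM of the 31 tested genes in each of the 12 libraries, minus the mean of the gene over all libraries, with genes grouped by role and libraries by treatment. In T. muris libraries 22 to 24 of the 31 genes are above their mean, and in PTSO libraries only 8 to 11 of the 31 are. Xbp1, Dnajb9 and Os9 differ widely between the control libraries.

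Among the sensors and transcription factors, Ern1 fell in every treated group relative to control. Ern1 stood at 87.4, 87.8 and 84.2 CPM in PTSO + T. muris libraries, 90.1, 93.7 and 87.8 in PTSO libraries, 90.8, 91.4 and 83.35 in T. muris libraries and 98.5, 112 and 101 in control libraries. All 9 treated libraries were below all 3 controls. Its log2 fold change against control was -0.26 with PTSO + T. muris (SE 0.0563, edgeR adjusted p = 0.00451), -0.19 with PTSO (SE 0.0559, adjusted p = 0.0484) and -0.23 with T. muris (SE 0.0562, adjusted p = 0.0273). These 3 values share the control libraries. Without control libraries 2 and 3 they were -0.19, -0.12 and -0.15, with edgeR adjusted p-values of 0.252, 0.72 and 0.998. The call with PTSO + T. muris was kept whichever single library was left out, and the call with PTSO was kept only without control library 1 (largest adjusted p = 0.232). The call with T. muris was lost without control library 2, control library 3 or any T. muris library (largest adjusted p = 0.177).

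Xbp1, the transcription factor that IRE1 activates, was the tested gene of the list whose control libraries spread most (coefficient of variation 15%). It stood at 121, 125 and 143 CPM in PTSO + T. muris libraries, 129, 120.1 and 123 in PTSO libraries, 128, 143 and 135 in T. muris libraries and 131, 166 and 177 in control libraries. The PTSO libraries were below every control, while the T. muris and PTSO + T. muris libraries overlapped control library 1. Xbp1 fell with PTSO against control, with a log2 fold change of -0.35 (SE 0.0943, edgeR adjusted p = 0.0499), which was -0.09 (adjusted p = 0.878) without control libraries 2 and 3 and -0.47 (adjusted p = 9.16e-07) without control library 1. Of the 12 single omissions, only those of control library 1 and PTSO + T. muris libraries 1 and 3 kept the call (largest adjusted p = 0.182). The PTSO call was also lost in edgeR with the size factors of DESeq2 (adjusted p = 0.0502) or with the 6 libraries compared alone. It was kept in edgeR without the filter on low counts and with the replicate number as a block. DESeq2 called Xbp1 lower with PTSO and with PTSO + T. muris against control, beside 5.26% and 10.4% of all genes. It also called Xbp1 lower for the average PTSO effect, beside 5.23%. With antigens present the PTSO value was -0.06 (95% interval -0.265 to 0.145), and the difference between the PTSO effects was 0.29 (SE 0.134, unadjusted p = 0.049, adjusted p = 0.644 by edgeR).

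Neither of the other sensors passed edgeR's test in any comparison of the main fit, although DESeq2 called Eif2ak3 higher for the average PTSO effect and with PTSO + T. muris against control, and Atf6 lower for the average antigen effect. Without the filter on low counts edgeR called Eif2ak3 higher with PTSO + T. muris against control and Atf6 lower for the average antigen effect. Without control library 1 it called Atf6 lower for the average antigen effect, beside 11.3% of all genes. Eif2ak3 was then higher with PTSO against control (beside 11.6%), for the average PTSO effect (9.97%) and with PTSO + T. muris against control (15.5%). Without T. muris library 3 Eif2ak3 was higher in the last 2 of these, beside 1.65% and 6.45%. Atf6 had 98.7, 87.8 and 86.2 CPM in PTSO + T. muris libraries, 94.1, 102 and 97.6 in PTSO libraries, 80.2, 84.3 and 87.6 in T. muris libraries and 98.5, 89.4 and 95.6 in control libraries, so the T. muris libraries were below every control (log2 fold change -0.17, SE 0.0599, edgeR adjusted p = 0.0812). Eif2ak3 had 119.9, 130 and 124 CPM in PTSO + T. muris libraries, 127, 124 and 119 in PTSO libraries, 112, 112 and 127 in T. muris libraries and 116, 106 and 112 in control libraries. The PTSO and PTSO + T. muris libraries of Eif2ak3 were above every control, with log2 fold changes of 0.15 (edgeR adjusted p = 0.122) and 0.17 (adjusted p = 0.0502). Part of the exons of Eif2ak3 (8.05%) overlaps an antisense gene, Gm43292, and the strand setting of the counting is not given in the sources used here.

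Among the chaperones, Calr, a calcium-binding lectin that retains unfolded glycoproteins, fell with PTSO when its effect was averaged over both backgrounds. It stood at 1111, 1089 and 1059 CPM in PTSO + T. muris libraries, against 1236, 1153 and 1202 in T. muris libraries. In PTSO libraries it stood at 1055, 1019 and 1036 CPM, against 1144, 1075 and 1166 in control libraries. The groups did not overlap within either pair. The average PTSO effect, 6 libraries against 6, was a log2 fold change of -0.13 (SE 0.0299, edgeR adjusted p = 0.0114), with -0.14 in the presence of antigens and -0.12 without them. This call was kept whichever single library was left out (largest adjusted p = 0.0431), and without control libraries 2 and 3 the value was -0.14 (adjusted p = 0.0021).

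The BiP gene Hspa5, a standard readout of ER stress, passed edgeR's test in no comparison of the main fit, and DESeq2 called it higher for the average antigen effect. Without control library 1, edgeR called Hspa5 higher with T. muris against control and for the average antigen effect, beside 13.4% and 12.4% of all genes. It stood at 588, 583 and 566 CPM in PTSO + T. muris libraries, 534, 564 and 553 in PTSO libraries, 614, 611 and 607 in T. muris libraries and 569, 553 and 583 in control libraries. The T. muris libraries were the highest 3 of the 12, with a log2 fold change against control of 0.10 (95% interval 0.0193 to 0.187, edgeR adjusted p = 0.113). With PTSO the value was -0.05 (95% interval -0.13 to 0.0376). Hsp90b1 had 547, 530.4 and 545 CPM in PTSO + T. muris libraries, 529, 549 and 512 in PTSO libraries, 589, 581 and 559 in T. muris libraries and 548, 576 and 586 in control libraries, and its average PTSO effect was -0.10 (edgeR adjusted p = 0.0572), which DESeq2 called lower. Without control library 1, edgeR called Hsp90b1 lower for the average PTSO effect, beside 10.2% of all genes. It also called Hsp90b1 lower with PTSO and with PTSO + T. muris against control, beside 11.6% and 15.0%. In Hsp90b1, 10.3% of the exon bases overlap the antisense gene 1810014B01Rik, and 3.3% and 2.08% overlap Gm25745 and Gm15344 on the same strand.

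Hyou1, the large nucleotide exchange factor of BiP, and Manf, a small ER protein that binds BiP and is secreted under stress, rose with T. muris against control. Hyou1 stood at 282, 274 and 297 CPM in T. muris libraries, against 267, 240.5 and 239 in control libraries, a log2 fold change of 0.19 (SE 0.0508, edgeR adjusted p = 0.0339). Manf stood at 100.5, 90.2 and 93.7 CPM in T. muris libraries, against 87.1, 78.2 and 82.2 in control libraries, a log2 fold change of 0.20 (SE 0.0598, edgeR adjusted p = 0.0491). Neither pair of groups overlapped. With PTSO present, Hyou1 had 287, 270.3 and 263 CPM in PTSO + T. muris libraries, against 263, 263 and 265 in PTSO libraries, and Manf had 83.3, 91.3 and 93 CPM, against 80.8, 82 and 87.3. Both of those pairs overlapped. In Manf, 4.71% of the exon bases overlap the antisense gene 4930524O07Rik, 4.14% the antisense gene Dcaf1 and 0.397% Rbm15b on the same strand. Without control libraries 2 and 3 the T. muris values were 0.09 for Hyou1 and 0.13 for Manf (edgeR adjusted p = 0.998 for each). Manf was called only without control library 1 among the 12 leave-outs, and Hyou1 lost its call without control library 2 or 3, any T. muris library or PTSO + T. muris library 2 (largest adjusted p = 0.184). Manf also lost its call in edgeR with the size factors of DESeq2, and both genes lost theirs with the 6 libraries compared alone.

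Creld2, a disulfide isomerase-like ER protein, rose with T. muris when the antigen effect was averaged over both backgrounds. It stood at 55, 57.3 and 59.8 CPM in PTSO + T. muris libraries, against 50.6, 48.1 and 52.5 in PTSO libraries. In T. muris libraries it stood at 54.25, 58.4 and 63.6 CPM, against 56.4, 47.3 and 46.5 in control libraries, where only control library 1 overlapped. DESeq2 called Creld2 higher with T. muris against control and for the average antigen effect, beside 6.06% and 5.12% of all genes. The average antigen effect was a log2 fold change of 0.21 (SE 0.0548, edgeR adjusted p = 0.0362). It was 0.12 (adjusted p = 0.475) without control libraries 2 and 3, and of the 12 single libraries only the omission of control library 1 kept the call (largest adjusted p = 0.121).

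Dnajb9, the BiP co-chaperone ERdj4 and a target of XBP1, fell with PTSO + T. muris against control. It stood at 33.8, 30.9 and 31.8 CPM in PTSO + T. muris libraries, against 33.5, 38.9 and 44.3 in control libraries, which overlapped through control library 1. The log2 fold change was -0.27 (SE 0.0891, edgeR adjusted p = 0.04), and it was -0.05 (adjusted p = 0.94) without control libraries 2 and 3. The call was also lost without control library 2 or 3 alone, T. muris library 1 or 2, or any PTSO + T. muris library (largest adjusted p = 0.263). Dnajb9 had 37.9, 35.7 and 34.9 CPM in PTSO libraries and 35.4, 35.7 and 38.9 CPM in T. muris libraries. The remaining chaperones, Hspa13, Canx, Sdf2l1, Dnajb11, Dnajc3 and the folding sensor Uggt1, which marks misfolded glycoproteins for another round with calnexin, passed the test in no comparison by edgeR or DESeq2 with all 12 libraries. Their group means ranged over 75.92 to 81.9 CPM for Hspa13, 644.4 to 697.9 for Canx, 17.96 to 20.06 for Sdf2l1, 87.16 to 92.21 for Dnajb11, 109 to 117.5 for Dnajc3 and 133.9 to 141.5 for Uggt1. Without control library 1, edgeR called Canx and Dnajb11 higher for the average antigen effect, beside 12.4% of all genes. It also called Canx higher with T. muris against control (beside 13.4%) and Dnajb11 higher with PTSO + T. muris against control (beside 15.5%). Dnajc3 was then lower for the average PTSO effect, beside 10.2%.

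The 4 disulfide isomerases, which form and reshuffle disulfide bonds in the ER, passed edgeR's test in no comparison, and all 4 had values below 0 for PTSO in both backgrounds. DESeq2 called P4hb lower with PTSO against control, for the average PTSO effect and with PTSO + T. muris against control, and Pdia6 higher for the average antigen effect. Without the filter on low counts edgeR also called P4hb lower for the average PTSO effect. Without control library 1 it called Pdia3, Pdia6 and P4hb lower for that effect, beside 10.2% of all genes. P4hb was then also lower with PTSO, T. muris and PTSO + T. muris against control, beside 11.6%, 12.4% and 15.0%. Pdia6 was then higher for the average antigen effect, beside 12.4%. P4hb had 1101, 1105 and 1137 CPM in PTSO + T. muris libraries, 1141, 1082 and 1092 in PTSO libraries, 1153, 1147 and 1191 in T. muris libraries and 1142, 1219 and 1281 in control libraries. All 6 libraries with PTSO were below all 6 without it, and the average PTSO effect was a log2 fold change of -0.10 (SE 0.0309, edgeR adjusted p = 0.0594), or -0.05 (adjusted p = 0.395) without control libraries 2 and 3. Pdia3, Pdia4 and Pdia6 had average PTSO effects of -0.07 to -0.08. In PTSO + T. muris libraries Pdia4 averaged 167.4 ± 2 CPM and Pdia6 244.2 ± 3.58, against 183.4 ± 12.9 and 259.1 ± 2.95 in T. muris libraries (SD, n = 3 each), without overlap.

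Herpud1, a membrane protein that helps assemble the degradation complex around the ubiquitin ligase HRD1, had the smallest adjusted p-value of the 31 tested genes over the 8 comparisons. It stood at 126, 121 and 121 CPM in PTSO + T. muris libraries, against 130.4, 134 and 133 in T. muris libraries. In PTSO libraries it stood at 120, 114 and 118 CPM, against 136, 136 and 143 in control libraries. The 6 libraries with PTSO were below the 6 without it, and those with PTSO alone were lowest. The average PTSO effect was a log2 fold change of -0.17 (SE 0.0328, 95% interval -0.24 to -0.103, edgeR adjusted p = 0.00326), kept whichever single library was left out (largest adjusted p = 0.0147) and without control libraries 2 and 3 (-0.16, adjusted p = 0.00822). Herpud1 fell by 0.24 on the log2 scale with PTSO against control (edgeR adjusted p = 0.00635) and by 0.17 with PTSO + T. muris against control (adjusted p = 0.018). Without control libraries 2 and 3 those values were -0.21 (adjusted p = 0.125) and -0.14 (adjusted p = 0.389), and the PTSO + T. muris call was lost without control library 3, PTSO + T. muris library 2 or PTSO + T. muris library 3 (largest adjusted p = 0.0935). With antigens in both groups the PTSO value was -0.10 (SE 0.0465, adjusted p = 0.505), and the difference between the PTSO effects was 0.13 (SE 0.0656, adjusted p = 0.649).

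Edem1, a mannosidase-like lectin that hands terminally misfolded glycoproteins to degradation, rose with PTSO + T. muris against control. It stood at 95.3, 89.2 and 90.9 CPM in PTSO + T. muris libraries, 83.7, 94 and 97 in PTSO libraries, 89.1, 92.8 and 93.5 in T. muris libraries and 80.8, 80.1 and 81.7 in control libraries. All 9 treated libraries were above all 3 controls. The log2 fold changes were 0.18 in each of the comparisons against control, with edgeR adjusted p = 0.0297 for PTSO + T. muris, 0.0644 for PTSO and 0.0546 for T. muris. Without control libraries 2 and 3 the PTSO + T. muris value was 0.19 (adjusted p = 0.313), and the call was also lost without control library 2 or 3 alone or any PTSO + T. muris library (largest adjusted p = 0.144). DESeq2 called Edem1 higher with PTSO, T. muris and PTSO + T. muris against control, beside 4.85%, 6.06% and 9.55% of all genes. The ubiquitin ligase Syvn1 (HRD1), its partner Sel1l, the channel proteins Derl1 and Derl2 and the lectin Os9 passed edgeR's test in no comparison of the main fit, and DESeq2 called Os9 lower with PTSO + T. muris against control. Without the filter on low counts edgeR called Os9 lower in that comparison, with PTSO against control and for the average PTSO effect. Without control library 1 it called Derl2 higher and Os9 lower with PTSO, T. muris and PTSO + T. muris against control. It then also called Derl1 and Os9 lower for the average PTSO effect and Os9 lower for the average antigen effect. Those calls stood beside shares of 10.2% to 15.5% of all genes. Group means ranged over 68.83 to 70.42 CPM for Syvn1, 124.8 to 130.5 for Sel1l, 122.4 to 134.6 for Derl1 and 74.36 to 81.7 for Derl2. Os9 spread over 115, 135 and 152 CPM in the control libraries alone.

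The translocon genes Sec61a1 and Sec61b, which encode subunits of the channel through which proteins enter the ER, and Ssr1, which encodes a subunit of the associated TRAP complex, passed edgeR's test in no comparison of the main fit. DESeq2 called Ssr1 higher with T. muris against control, as did edgeR without the filter on low counts, and Sec61a1 higher for the average antigen effect. Without control library 1, edgeR called all 3 higher with T. muris against control, beside 13.4% of all genes. It then also called Sec61b and Ssr1 higher with PTSO against control, beside 11.6%. Sec61a1 and Ssr1 were then higher with PTSO + T. muris against control (beside 15.5%) and for the average antigen effect (12.4%). With the replicate number as a block edgeR called Ssr1 higher with T. muris and with PTSO + T. muris against control, beside 4.19% and 8.48%. All 3 were higher without overlap in T. muris than in control libraries. Sec61a1 averaged 256.9 ± 4.27 CPM in T. muris libraries and 235.5 ± 9.52 in control libraries, Sec61b 55.72 ± 3.29 and 48.37 ± 4.88, and Ssr1 212.9 ± 3.67 and 189.5 ± 13.2 (SD, n = 3 each). Their log2 fold changes were 0.13, 0.20 and 0.17, with edgeR adjusted p-values of 0.0894, 0.117 and 0.0535. In PTSO libraries Sec61a1 averaged 238.7 ± 7.67 CPM, Sec61b 55.19 ± 2.48 and Ssr1 203.8 ± 1.28. In Sec61a1, 8.16% of the exon bases overlap the antisense gene Gm44170.

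**Figure D3:**
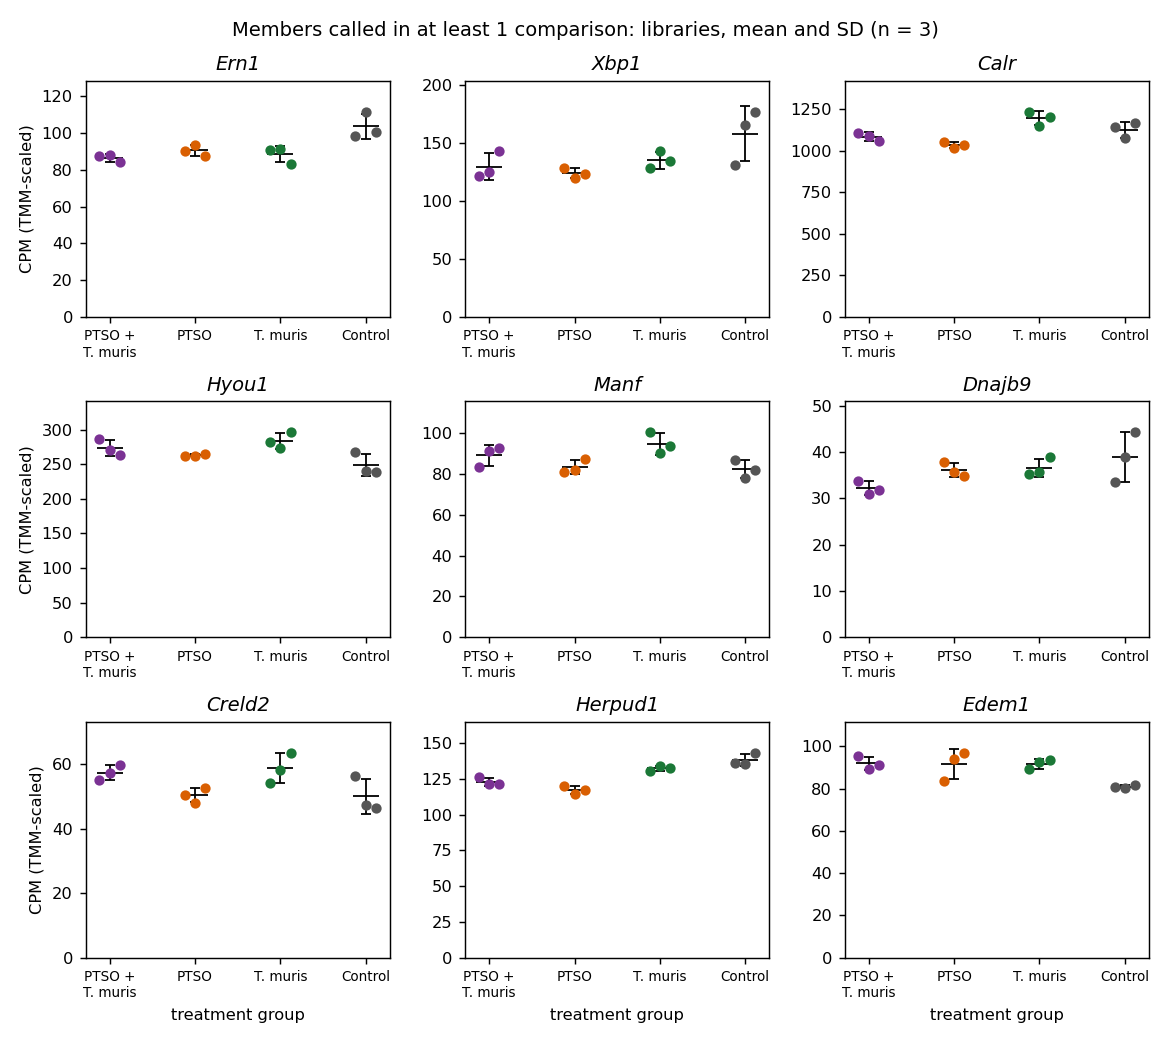
TMM-scaled CPM of the 9 genes that passed the test in at least 1 comparison, with 1 point per library and bars for the mean and SD of 3 libraries in PTSO + T. muris, PTSO, T. muris and control. All treated libraries lie below the controls for Ern1 and Herpud1 and above them for Edem1, and the control libraries of Xbp1 run from 131 to 177 CPM.

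The 3 genes whose 9 treated libraries lay outside the range of the 3 controls were Ern1 and Herpud1, both lower, and Edem1, higher. Ern1 ranged over 83.35 to 93.73 CPM in treated and 98.54 to 111.6 CPM in control libraries. Herpud1 ranged over 114.3 to 133.8 CPM in treated and 135.7 to 143.4 CPM in control libraries. Edem1 ranged over 83.68 to 96.97 CPM in treated and 80.08 to 81.67 CPM in control libraries. Among all genes tested, 3.12% were lower and 3.46% higher in this way, beside 2 and 1 of the 31, and the difference was not tested.

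Over the whole list, PTSO against control lowered 3 genes (Ern1, Xbp1 and Herpud1) and raised none, of 31, where edgeR called 2.90% of all genes lower and 2.36% higher. The median log2 fold change of the 31 genes was -0.02, and 18 of 31 values were below 0, beside 49.6% of all genes. Over the 8 comparisons the median of all genes tested stayed between -0.00414 and 0.00184. Every PTSO library lay above every control in 3 genes (Eif2ak3, Edem1 and Sec61b) and below in 6 (Ern1, Xbp1, Calr, Dnajc3, P4hb and Herpud1), beside 10.4% and 10.2% of all genes. The difference between these counts and the background shares was not tested. Without control library 1, 6 were higher and 7 lower, beside 11.6% of all genes in each direction, and without control libraries 2 and 3 together none was called, beside 0.199% higher and 0.265% lower among all genes. Only 1 was left when control library 2, control library 3, PTSO library 2, PTSO library 3, any T. muris library or PTSO + T. muris library 2 was left out. Over the 12 leave-outs the calls among all genes ran from 165 to 3637. The average PTSO effect lowered Calr and Herpud1 (all genes 3.71% lower and 2.80% higher). Its median was -0.05, and 22 of the 31 values were below 0, beside 49.4% of all genes. In P4hb and Herpud1 the 6 libraries with PTSO lay below the 6 without it and in no gene above, beside 1.44% and 1.18% of all genes. At an unadjusted p under 0.05, 14 of the 31 were lower and 2 higher, beside 11.5% and 10.3% of all genes. Without control library 1 it called 12 lower and 1 higher, beside 10.2% and 9.97% of all genes.

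With T. muris antigens in both groups, PTSO + T. muris against T. muris, no gene of the 31 passed edgeR's test, where 0.386% of all genes were called lower and 0.229% higher. At an unadjusted p under 0.05, 5 were lower (Hsp90b1, Calr, Pdia4, Herpud1 and Derl1) and none higher, beside 4.84% and 4.05% of all genes, and DESeq2 called none. Of the 31 values, 26 were below 0, beside 49.8% of all genes, and their median was -0.07. In 11 genes every PTSO + T. muris library was below every T. muris library, beside 9.74% of all genes, and no gene of the list had the opposite arrangement (8.92% of all). The 11 were Hspa5, Hspa13, Hsp90b1, Calr, Dnajb9, Pdia3, Pdia4, Pdia6, P4hb, Herpud1 and Derl1. Calr was called lower in this comparison without control library 1, beside 1.48% of all genes, and without control libraries 2 and 3, beside 1.52%.

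T. muris against control raised Hyou1 and Manf and lowered Ern1, of 31, where edgeR called 2.91% of all genes higher and 3.43% lower. The median was 0.08, and 21 values were above 0, beside 50.2% of all genes. Every T. muris library lay above every control in 11 genes and below in 3, beside 11.3% and 11.7% of all genes. Those higher were Hspa5, Canx, Hyou1, Manf, Pdia4, Pdia6, Edem1, Derl1, Sec61a1, Sec61b and Ssr1, and those lower were Atf6, Ern1 and Herpud1. Without control library 1 the count was 10 higher and 4 lower, beside 13.4% and 12.4% of all genes. Without control library 2, control library 3 or any T. muris library it was 0, and without PTSO + T. muris library 2 it was 1. Over the 12 leave-outs the calls among all genes ran from 2 to 4044.

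The average antigen effect raised Manf and Creld2 and lowered Ern1 (all genes 2.12% higher and 3.07% lower), with log2 fold changes of 0.15 (edgeR adjusted p = 0.0459), 0.21 (adjusted p = 0.0362) and -0.15 (adjusted p = 0.0408). Its median was 0.05, and 22 of 31 values were above 0, beside 50.3% of all genes. In no gene of the list did the 6 libraries with antigens lie wholly above or below the 6 without, beside 0.721% and 0.956% of all genes. Without control library 1, 10 were higher and 5 lower, beside 12.4% and 11.3% of all genes. Without any 1 of the other libraries 0 were called, except without control library 3, which left 1. Over the 12 leave-outs the calls among all genes ran from 55 to 3718. In PTSO + T. muris against PTSO no gene of any kind passed edgeR's test (0% of all genes), although DESeq2 called 15. At an unadjusted p under 0.05, 1 of the 31 was higher (Creld2) in that comparison, beside 2.48% higher and 3.63% lower among all genes, and DESeq2 called none of the 31. Every PTSO + T. muris library lay above every PTSO library in 6 genes (Hspa5, Calr, Creld2, Pdia3, Pdia6 and Herpud1) and below in Dnajb9, beside 7.49% and 7.89% of all genes.

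PTSO + T. muris against control raised Edem1 and lowered Ern1, Dnajb9 and Herpud1, of 31, where edgeR called 7.88% of all genes higher and 8.85% lower. The median log2 fold change was -0.00155, and 16 values were below 0, beside 49.9% of all genes. Every PTSO + T. muris library lay above every control in 4 genes (Eif2ak3, Edem1, Derl2 and Sec61a1) and below in 5 (Ern1, Hsp90b1, Dnajc3, P4hb and Herpud1), beside 14.5% and 14.9% of all genes. Without control library 1, 9 were higher and 7 lower, beside 15.5% and 15.0% of all genes, and without control libraries 2 and 3 together none was called, beside 0.469% and 0.758%. The count was 2 without control library 2, PTSO + T. muris library 1 or PTSO + T. muris library 3, and 1 without control library 3 or PTSO + T. muris library 2, and the calls among all genes ran from 990 to 4799 over the 12 leave-outs. The interaction, or the PTSO effect in the presence of antigens minus the one in their absence, called no gene of any kind (0% of all genes). At an unadjusted p under 0.05, Xbp1 was higher, and Edem1 (-0.18) and Sec61b (-0.28) were lower, beside 3.88% and 3.85% of all genes, and DESeq2 called none of the 31. Without control library 1, Xbp1 was called higher and Sec61b lower, beside 3.63% and 4.50% of all genes. The lowest and highest 95% bounds of any interaction value were -0.509 for Sec61b and 0.58 for Xbp1, both log2.

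**Figure D4:**
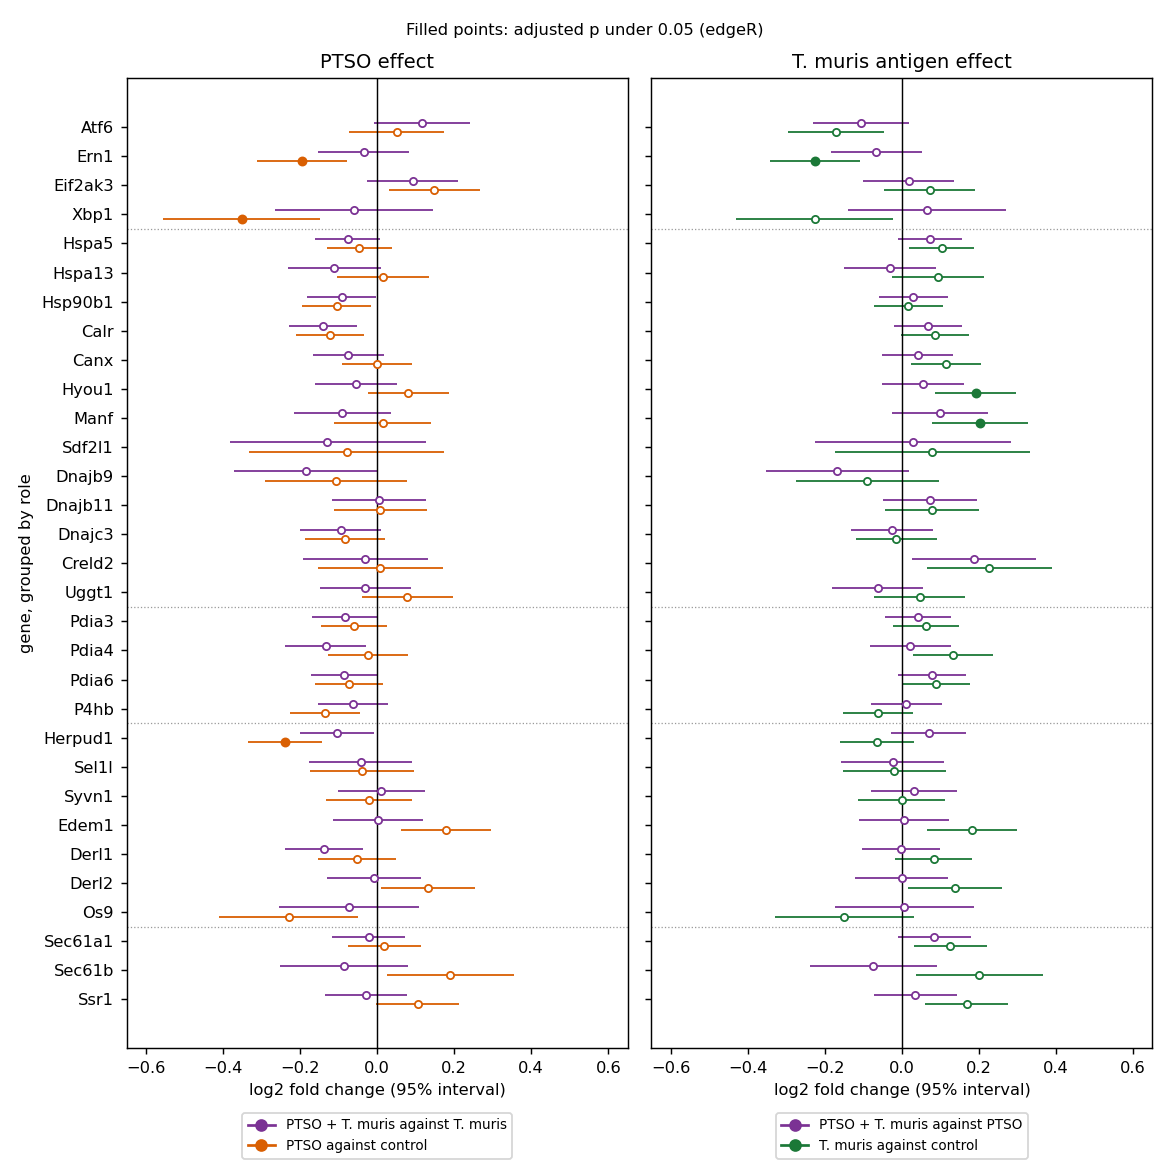
Log2 fold change and 95% interval of the 31 tested genes for PTSO (left) and for T. muris antigens (right), each with and without the other treatment, and filled points at an edgeR adjusted p under 0.05. The filled points are Ern1, Xbp1 and Herpud1 for PTSO against control and Ern1, Hyou1 and Manf for T. muris against control, and 26 of 31 points for PTSO + T. muris against T. muris lie left of 0.

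By promoter, the 10 tested genes with either form of the ERSE had a median average antigen effect of 0.08 on the log2 scale, with 9 of 10 above 0. The 15 genes whose window held neither form had a median of 0.04, with 8 above and 7 below 0. For the average PTSO effect the medians were -0.07 in both sets, with 9 of 10 and 9 of 15 below 0. Outside the list, 38 genes held either form, of which 14 were tested, and their medians were -0.01 for the antigens and -0.04 for PTSO. The difference between these sets was not tested.

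Other genes of the pathway were counted in 6 lists, for the average PTSO effect first, where edgeR called 2.80% of all genes higher and 3.71% lower. In the PERK and ATF4 arm, 4 of 14 rose and 2 fell. Not called were Atf4, Ddit3, Trib3, Chac1, Sesn2, Slc7a11, Eif2s1 and Nfe2l2. At an unadjusted p under 0.05, 8 of the 14 were higher and 3 lower, beside 10.3% and 11.5% of all genes. Ppp1r15a, which encodes the phosphatase subunit GADD34 that ends the PERK signal, averaged 75.65 ± 5.68 CPM with PTSO + T. muris and 76.29 ± 4.36 with PTSO, against 58.69 ± 3.23 with T. muris and 53.98 ± 4.05 in control libraries (SD, n = 3 each), an average PTSO effect of 0.43 on the log2 scale (SE 0.0493, edgeR adjusted p = 2.65e-05). The stress factor Atf3 rose by 0.38 (adjusted p = 0.00169) and the mTOR inhibitor gene Ddit4 by 0.27 (adjusted p = 0.000424), whereas the ATF4 target genes Asns, for asparagine synthetase, and Nupr1 fell, with log2 fold changes of -0.33 (adjusted p = 0.000852) and -0.29 (adjusted p = 0.000374). These 5 were kept in all 12 leave-outs and without control libraries 2 and 3, and Cebpb was the remaining rise (0.22, adjusted p = 0.0406), kept in 3 of 12. Among ER folding and oxidation genes outside the list, 3 of 17 rose and 1 fell, led by the disulfide isomerase gene Txndc5 (0.23, SE 0.0335, edgeR adjusted p = 0.00029, kept in all 12 leave-outs). The others there were Selenof (0.13) and Selenok (0.16), both selenoprotein genes, and Txndc11 (-0.18), kept in 9, 2 and 2 of the 12. Sec62, a translocon gene, fell by 0.13 (1 of 19), and Mbtps1, the site-1 protease gene that serves ATF6, fell by 0.14 (1 of 10 in its list), each kept in 4 of 12 leave-outs. None of 18 degradation genes outside the list and none of 16 N-glycosylation genes passed edgeR's test, with 5 lower and none higher in the first and 1 lower and none higher in the second at an unadjusted p under 0.05, beside 10.3% higher and 11.5% lower among all genes, and DESeq2 called 1 lower in each, beside 5.23% of all genes.

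For the average antigen effect, where edgeR called 2.12% of all genes higher and 3.07% lower, the PERK and ATF4 arm held 2 of 14 higher, the cystine transporter gene Slc7a11 (0.38, edgeR adjusted p = 0.0259) and Sesn2 (0.34, adjusted p = 0.0299), and 1 lower, Ddit4 (-0.28, adjusted p = 0.00184). Ddit4 was kept in all 12 leave-outs, Slc7a11 in 2 and Sesn2 in 3. With control libraries 2 and 3 left out, the values were -0.197 for Ddit4, 0.244 for Slc7a11 and 0.284 for Sesn2. The oligosaccharyltransferase genes Ddost (0.15, adjusted p = 0.0215) and Rpn1 (0.13, adjusted p = 0.0288) rose, as 2 of 16 N-glycosylation genes, 15 of which had values above 0. The TRAP complex genes Ssr3 (0.13, adjusted p = 0.0358) and Ssr2 (0.17, adjusted p = 0.0437) rose, as 2 of 19 translocon genes, and Selenof rose by 0.11 (adjusted p = 0.0453), as 1 of 17 folding genes. Without control libraries 2 and 3, none of these 5 was called (adjusted p of 0.138 to 0.501). No degradation gene outside the list (18 tested) and no ATF6-related gene (10 tested) passed edgeR's test. At an unadjusted p under 0.05, 2 degradation genes were higher and 2 lower, and 4 ATF6-related genes were lower, beside 11.7% higher and 12.1% lower among all genes. DESeq2 called 1 higher in the first and 1 lower in the second, beside 5.12% and 5.97% of all genes.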

How the data were processed

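Per the file headers and values, the authors deposited 1 table of whole-number read counts per gene for the 12 libraries, with HISAT, DESeq2 and mm39 named in the submitters' processing notes without versions or roles. How reads were assigned to genes, and whether by strand, is not given in the sources used here. From these counts, genes were filtered with filterByExpr of edgeR 4.0.16 (15267 of 55137 kept, with 99.93% of the counts), scaled by TMM and fitted with 1 coefficient per group over all 12 libraries (8 residual degrees of freedom). Each comparison used the quasi-likelihood F-test with robust dispersion, Benjamini-Hochberg adjustment over all genes tested and a threshold of 0.05. The SE is the log2 fold change divided by the square root of F. The code was tested on simulated data. Alternatives were DESeq2 1.42.0, its size factors in edgeR, no filter, the 6 libraries compared alone, a replicate block, no control libraries 2 and 3, and each library left out in turn. Exon lengths and overlaps came from GENCODE annotation of GRCm38, which is not the authors' build, and promoters from RefSeq (GRCm38.p6). Total counts of 16.7 to 34.5 M set the counting precision. The rule for naming genes gives values per library for genes called in any comparison, the sensors, Xbp1, Hspa5 and the 4 smallest p-values of each average effect, and group means for the others. Of the related lists, the rule names up to 4 called genes per list and comparison. The PERK and ATF4 arm departs from it, since all its genes are named for the average PTSO effect. The members, lists and comparisons were chosen with earlier results of these data known. R 4.3.3 and matplotlib 3.10.9 were used.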

Additional observations from a re-analysis of the deposited data

How the results depend on the processing

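The number of called genes of the list depended on which control libraries were used. DESeq2 called 5 with PTSO against control, 6 for the average PTSO effect, 6 with T. muris against control, 8 for the average antigen effect and 8 with PTSO + T. muris against control, where edgeR called 3, 2, 3, 3 and 4. Among all genes DESeq2 called 1544, 1476, 1960, 1692 and 3051 in those comparisons, where edgeR called 802, 994, 969, 792 and 2554. With the size factors of DESeq2, edgeR lost Xbp1 with PTSO against control and Manf with T. muris against control, beside 788 and 967 of all genes called. It called the same genes of the list as the main fit in the other comparisons. Without the filter on low counts edgeR called 5 for the average PTSO effect, 7 with T. muris against control, 5 for the average antigen effect and 8 with PTSO + T. muris against control, beside 1637, 2063, 1816 and 2963 of all genes. Without control libraries 2 and 3 it called 0 with PTSO against control, 0 with T. muris against control, 0 for the average antigen effect, 0 with PTSO + T. muris against control and 1 with PTSO + T. muris against T. muris, beside 77, 8, 79, 204 and 425 of all genes. With the 6 libraries compared alone it called 0 with PTSO against control, 0 with T. muris against control, 1 with PTSO + T. muris against control and 1 with PTSO + T. muris against T. muris, beside 46, 1, 864 and 479 of all genes. With each library left out in turn the count ran from 1 to 13 with PTSO against control, 0 to 1 with PTSO + T. muris against T. muris, 2 to 13 for the average PTSO effect, 0 to 14 with T. muris against control, 0 to 0 with PTSO + T. muris against PTSO, 0 to 15 for the average antigen effect, 1 to 16 with PTSO + T. muris against control and 0 to 2 for the interaction. Among all genes those ranges were 165 to 3637, 23 to 371, 501 to 3169, 2 to 4044, 0 to 36, 55 to 3718, 990 to 4799 and 0 to 1279. The highest count in each range that reached above 0 came without control library 1. Over the same leave-outs the median log2 fold change of the list stayed between -0.0796 and -0.0543 for PTSO + T. muris against T. muris and between 0.056 and 0.0982 for T. muris against control. The average antigen value of Xbp1, -0.08 and not called, was 0.05392 without control libraries 2 and 3. The cause of these shifts was not tested.

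With the replicate number as a block, 3 genes were called with PTSO against control, 0 with PTSO + T. muris against T. muris, 3 for the average PTSO effect, 4 with T. muris against control, 0 with PTSO + T. muris against PTSO, 4 for the average antigen effect, 6 with PTSO + T. muris against control and 0 for the interaction. Among all genes the block fit called 904, 87, 1027, 1246, 0, 1022, 2674 and 1 in those comparisons. The main fit called 802, 94, 994, 969, 0, 792, 2554 and 0. Of 18 correlations between same-numbered libraries 0 were over 0.1 (-0.0584 to 0.0976), and in 5 of 18 cases a library correlated best with its own number. With 3 libraries a group this check cannot exclude a batch shared by same-numbered libraries. The median SE within the list, 0.0558 on the log2 scale for PTSO against control, limits what 3 libraries a group can detect.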

Other observations

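Xbp1 had a coefficient of variation of 15%, Dnajb9 of 13.9% and Creld2 of 11% over the 3 control libraries. Os9 ranged over 107.8 to 131.2 CPM in the 9 treated libraries and stood at 114.5, 134.8 and 151.6 CPM in control libraries 1, 2 and 3. In each library the median deviation of the 31 genes from their own means was 0.0484 to 0.0664 on the log2 scale in T. muris libraries, -0.0357 to -0.0278 in PTSO libraries, -0.022 to 0.000861 in PTSO + T. muris libraries and -0.0415 to 0.027 in control libraries. Syvn1, the ubiquitin ligase of the degradation complex, had the lowest spread over the 12 libraries for its level, 14.35 ± 0.402 CPM per kb.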
